A study of Rattus norvegicus with 9 samples.

Results

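The striated muscle miRNAs rno-miR-1b, rno-miR-206-3p and rno-miR-499-5p were followed in rat serum after pulmonary artery banding (PAB), in which a ring narrows the pulmonary artery and loads the right ventricle (RV). They were taken by name from the 276 mature miRNAs of the deposited table, and all 3 had reads in enough libraries to be tested. Serum came from wild-type male Sprague-Dawley rats that lived to week 4 after surgery, with 1 small RNA library per rat. The PAB group had 6 libraries and the sham group, whose rats had a sham operation, had 3. The rats were 4 weeks old at surgery, which was done under isoflurane with buprenorphine. All RNA came from serum, so fewer releasing cells and less miRNA released per cell cannot be told apart.

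miR-1 and miR-206 form a family with the same seed, the stretch near the 5′ end of a miRNA that pairs with target mRNAs. Members of the miR-1 branch are abundant in heart and skeletal muscle, where they favour differentiation over growth, while miR-206 is known chiefly from skeletal muscle. miR-499 is encoded within a myosin heavy chain gene, is found in heart and slow skeletal muscle, and belongs with miR-208 to the miRNAs that control the choice of myosin. Because these miRNAs are scarce outside muscle, they are measured in blood as signs of muscle injury.

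The mature sequences below, from RefSeq (build GRCr8), are shown because the first pair share a seed yet differed in their pattern over the libraries, and because a miRNA close to miR-1b bears on its reads. They are written 5′ to 3′ with the seed (bases 2 to 8) in capitals.
rno-miR-1b: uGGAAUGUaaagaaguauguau
rno-miR-206-3p: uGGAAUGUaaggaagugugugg
rno-miR-499-5p: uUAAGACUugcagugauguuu
rno-miR-1-3p: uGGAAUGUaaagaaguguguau
miR-1b and miR-206-3p are both 22 bases long and differ at 4 of them, all outside the seed (A11G, A17G, A21G and U22G, counted from the 5′ end with the base of miR-1b first). Of the 196 miRNAs of the table that matched a RefSeq mature miRNA by name, these 2 were the ones with the seed GGAAUGU, and miR-499-5p was the one with UAAGACU. miR-1-3p, another form of miR-1, differs from miR-1b by 1 base (G17A, with the base of miR-1-3p first). It was not among the miRNAs of the table, so it has no counts here. The sources used here do not say how a read that fits both was assigned, so the reads of miR-1b are uncertain to that extent.

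The 3 miRNAs come from separate loci. In GRCr8, miR-1b lies at chr3:187864736-187864757 on the plus strand, in no other annotated gene. miR-206-3p lies at chr9:30590747-30590768 on the plus strand, within an uncharacterised long noncoding RNA gene and 3801 bases from the precursor of miR-133b. miR-499-5p lies at chr3:164570616-164570636 on the plus strand, within Myh7b, a myosin heavy chain gene.

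The libraries held 19477 to 65313 miRNA reads, with 19477 to 64455 in the PAB group and 56231 to 65313 in the sham group. Levels are also given as RPM, which relates the reads of a miRNA to a whole-library total, here about 12630000 to 19250000 reads as the ratio of reads to RPM gives it. The number of miRNAs with at least 1 read was 81 to 131 in the PAB group and 129 to 217 in the sham group, with sham libraries 1 and 2 (173 and 217) above all others. Reads amplified by PCR are not independent molecules, so the intervals for shares and the limits for zero counts cover counting error only.

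rno-miR-1b was found in every library, and most of its reads came from sham serum. It had 41, 54, 8, 18, 43 and 111 reads in PAB libraries 1 to 6, against 282, 801 and 62 reads in sham libraries 1 to 3. In RPM it was 2.13, 3.452, 0.517, 1.175, 2.244 and 8.651 in the PAB libraries, against 22.336, 47.843 and 3.656 in the sham libraries. Sham libraries 1 and 2 were above every PAB library, while sham library 3 lay below PAB library 6, so the groups overlapped. It averaged 3.03 ± 2.93 RPM over the PAB libraries (SD, n = 6), against 24.6 ± 22.2 RPM over the sham libraries (SD, n = 3), 8.13-fold higher in sham serum. As a share of miRNA reads, miR-1b ran between 0.0302% (95% exact interval 0.0130% to 0.0594%) in PAB library 3 and 0.372% (0.306% to 0.448%) in PAB library 6, and it reached 1.23% (1.15% to 1.32%) in sham library 2.

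rno-miR-206-3p had the most reads of the 3, at 2855 in all, and was either plentiful or nearly missing in a given library. It had 1, 536, 974, 751, 2 and 5 reads in PAB libraries 1 to 6, against 10, 573 and 3 reads in sham libraries 1 to 3. In RPM it was 0.052, 34.269, 62.936, 49.019, 0.104 and 0.39 in the PAB libraries, against 0.792, 34.225 and 0.177 in the sham libraries. High and low libraries occurred in both groups. In PAB library 3 it was the 10th most abundant of 81 detected miRNAs, at 3.67% of miRNA reads (95% exact interval 3.45% to 3.91%). In PAB library 5 it took 0.00331% (0.000400% to 0.0119%). No library lay between 10 and 536 reads, a gap of 5.61 on the log2(reads + 1) scale. Such gaps were common in this table, since 29 of 162 tested miRNAs (17.9%) had one of at least 5, and miR-206-3p ranked 25th. It averaged 24.5 ± 28.1 RPM over the PAB libraries (SD, n = 6), against 11.7 ± 19.5 RPM over the sham libraries (SD, n = 3), with SDs larger than the means.

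rno-miR-499-5p was the scarcest, with 68 reads in all, of which 6 were in the PAB group and 62 in the sham group. It had 2, 0, 0, 0, 1 and 3 reads in PAB libraries 1 to 6, against 19, 42 and 1 reads in sham libraries 1 to 3. In RPM the PAB libraries held 0.104, 0, 0, 0, 0.052 and 0.234, against 1.505, 2.509 and 0.059 in the sham libraries. Sham libraries 1 and 2 stood apart, while sham library 3, with its single read, lay within the PAB range. It averaged 0.0650 ± 0.0927 RPM over the PAB libraries (SD, n = 6), against 1.36 ± 1.23 RPM over the sham libraries (SD, n = 3), 20.9-fold higher in sham serum. A count of 0 still allows up to 0.192, 0.194 and 0.196 RPM in PAB libraries 2, 3 and 4, taken as 3 counts, and 0.00465%, 0.0113% and 0.00601% of their miRNA reads. The value of sham library 3 was below these limits, so the libraries with 0 reads could not be told from it at this depth.

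**Figure D1:**
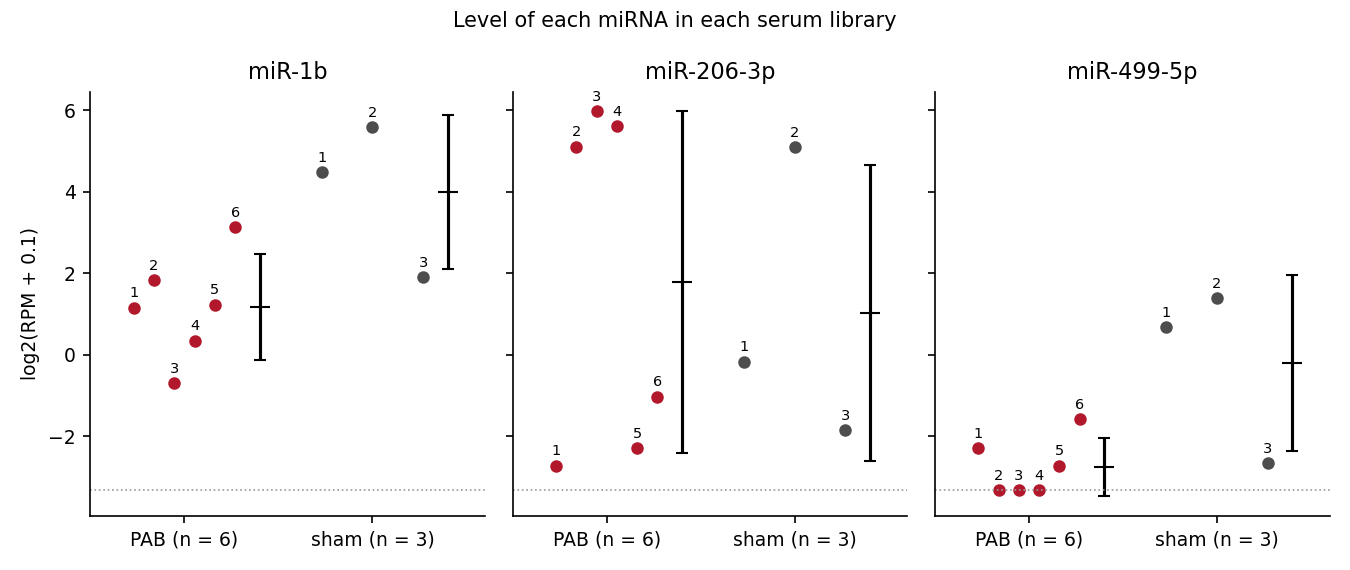
Level of miR-1b, miR-206-3p and miR-499-5p as log2(RPM + 0.1) in the PAB (red) and sham (grey) libraries, numbered by library, with the mean and SD of each group in black and the value of 0 RPM as a dotted line. miR-206-3p falls into 4 high and 5 low libraries that cross the groups, and the sham values of miR-1b and miR-499-5p are high in libraries 1 and 2 and lower in library 3.

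To ask which serum miRNAs differed between PAB and sham, the counts were tested across 162 miRNAs with edgeR's quasi-likelihood test. Before it, TMM normalization set each library against the bulk of its miRNAs, by a factor on its total. The factor was 1.80 in sham library 1, 2.17 in sham library 2, 0.614 in sham library 3 and 0.701 to 1.15 in the PAB libraries. A larger factor lowers the normalized level of a given count. None of the 3 miRNAs passed an adjusted p of 0.05 with a |log2FC| of at least 1, where 1.23% of all tested miRNAs did (0.0% higher and 1.23% lower). At an unadjusted p under 0.05 there were also 0 of the 3, against 14.8% of all tested (4.32% higher and 10.5% lower). DESeq2 on the same miRNAs called 0 of the 3, and 8.64% of all (5.56% higher and 3.09% lower).

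For miR-206-3p the log2FC of PAB against sham was 2.94 (standard error 2.55, 95% interval −2.31 to 8.20, edgeR adjusted p = 0.597). For miR-1b it was −1.18 (standard error 2.11, 95% interval −5.54 to 3.18, edgeR adjusted p = 0.871). For miR-499-5p it was −2.19 (standard error 1.21, 95% interval −4.69 to 0.32, edgeR adjusted p = 0.351). Every interval includes 0 and also changes of several fold in either direction for miR-1b and miR-206-3p, so these libraries neither separate the groups nor show that they are alike. The median log2FC of all 162 miRNAs was −0.15, and miR-206-3p ranked 21st from the highest and miR-499-5p 25th from the lowest.

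**Figure D2:**
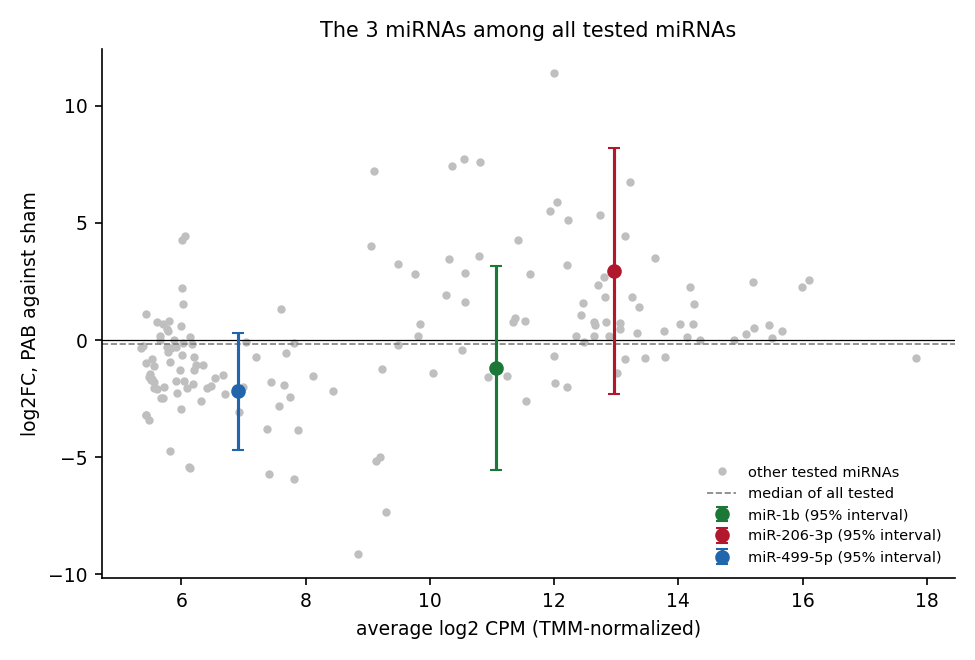
Log2FC of PAB against sham for all 162 tested miRNAs (grey) against their average level in log2 CPM, with miR-1b, miR-206-3p and miR-499-5p in colour with 95% intervals. All 3 intervals include 0, and many other miRNAs lie farther from 0.

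Sham library 2 weighed on each value. It held 56.4% of all miR-1b reads, 61.8% of all miR-499-5p reads and the single high sham value of miR-206-3p. Such shares were common, since the library with the most reads of a miRNA held a median of 50.1% over the 162 tested. Without sham library 2, the log2FC of miR-206-3p was 6.96 (edgeR adjusted p = 0.666). That of miR-1b was −0.52 (adjusted p = 0.996) and that of miR-499-5p −1.37 (adjusted p = 0.876). Without both sham libraries 1 and 2, a setting chosen after the data were seen, the log2FC of miR-499-5p was 0.26 and that of miR-1b −0.31 (edgeR adjusted p = 0.949 and 0.954), while miR-206-3p had 6.91 (adjusted p = 0.949). That fit has 1 sham library, which is assumed to vary as the PAB libraries do. Leaving out PAB library 3, with the most miR-206-3p, gave that miRNA a log2FC of 1.98 (adjusted p = 0.793).

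On the authors' RPM scale, which relates a miRNA to the whole library rather than to other miRNAs, the level of miR-1b differed by −2.83 in mean log2(RPM + 0.1), at 1.17 ± 1.30 in PAB serum (SD, n = 6), against 3.99 ± 1.89 in sham serum (SD, n = 3; two-sided exact permutation test, p = 0.0238). For miR-499-5p the values were −2.76 ± 0.71 in PAB serum (SD, n = 6), against −0.20 ± 2.16 in sham serum (SD, n = 3), which differ by −2.56 (exact permutation test, p = 0.0357). Since 3 PAB libraries had 0 reads, the pseudocount sets the size of that difference, which was −4.21 with 0.01 and −0.99 with 1 (exact permutation p = 0.0476 and 0.0357). For miR-206-3p they were 1.78 ± 4.20 in PAB serum (SD, n = 6), against 1.03 ± 3.63 in sham serum (SD, n = 3), which differ by 0.75 (exact permutation test, p = 0.869). Lower values were common in the table, where 24.7% of the 162 tested were lower in the PAB group at p ≤ 0.05 in the same exact permutation test and 0.0% were higher. The median difference of all 162 was −1.30. Adjusted over all 162, the p of miR-1b was 0.148, that of miR-499-5p 0.156 and that of miR-206-3p 0.945 (exact permutation tests with Benjamini-Hochberg adjustment). The smallest possible p of a single test was 0.0119. No adjusted p in the table was below the 0.148 of miR-1b, and 0.0% of the 162 passed 0.05. With these few libraries a miRNA could pass only if many others had equally small p, so the adjusted values do not judge the members. The exact permutation p of miR-1b and miR-499-5p was 0.107 without sham library 1 and 0.107 without sham library 2. Without sham library 3 it was 0.0357 for each, the smallest possible p with the 28 splits that remain when a sham library is left out. It was 0.0536 for miR-1b without any one of PAB libraries 1 to 5, and 0.0536 for miR-499-5p without any one of PAB libraries 2 to 5. Without PAB library 6 the exact permutation p of miR-1b was 0.0179. That of miR-499-5p was 0.0357 without PAB library 1 and 0.0357 without PAB library 6. As shares of miRNA reads the exact permutation p was 0.0833 for miR-1b and 0.0952 for miR-499-5p.

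The scale also decided the call of miR-499-5p. Normalized to the whole-library totals behind RPM instead of TMM, edgeR gave it a log2FC of −4.25 (adjusted p = 0.0456) and called it lower, together with 14.2% of all tested miRNAs. The median log2FC of all tested was then −1.54, and relative to that median miR-499-5p was at −2.72, against −2.04 with TMM. In the same fit miR-1b had −3.02 and miR-206-3p 1.06 (edgeR adjusted p = 0.377 and 0.819). In the number of libraries with reads, miR-499-5p was found in 3 of 6 PAB libraries and 3 of 3 sham libraries (Fisher's exact two-sided test, p = 0.464), and the other 2 were found in all.

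**Figure D3:**
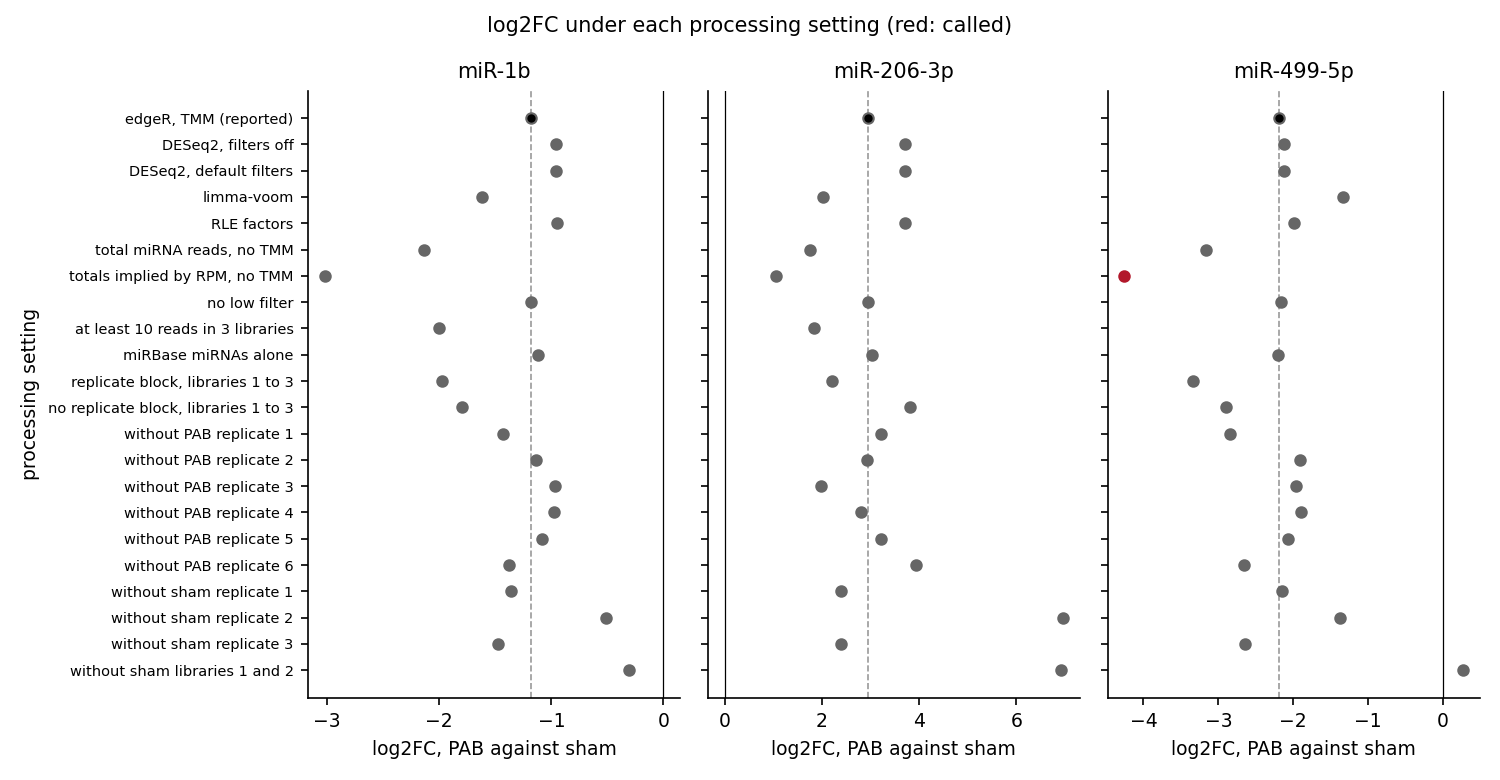
Log2FC of PAB against sham for each of the 3 miRNAs (panels) under the reported fit (black point, dashed line) and each alternative (one per line); red marks a value past the threshold. The red point is miR-499-5p at −4.25 with the totals implied by RPM, and the value of miR-206-3p moves to 6.96 without sham library 2.

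Of 16 names on a list of heart and skeletal muscle miRNAs, 6 were in the table and tested. These were the 3 and miR-133a-3p, miR-133b-3p and miR-133c. miR-133a and miR-133b are muscle miRNAs encoded close to members of the miR-1 family. Of the 6, 0 were called in either direction by edgeR, 1 had a log2FC above 0 (miR-206-3p) and 5 below 0, with a median of −1.22, against −0.15 for all tested miRNAs, of which 53.1% were below 0. With DESeq2's size factors miR-133b-3p was above 0 as well, at 0.28 (−0.10 with TMM).

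miR-1b had 0.939 as its Pearson r with miR-133c, 0.938 with miR-133a-3p, 0.926 with miR-499-5p and 0.777 with miR-133b-3p, in log2(RPM + 0.1) over the 9 libraries. Values of this size were not confined to muscle miRNAs, since 19 of 161 other miRNAs had an r above 0.9 with miR-1b and the median was 0.633. In RPM, miR-133a-3p was 0.131 to 1.559 (median 0.682) in the PAB group and 1.769 to 10.453 in the sham group, with no overlap, as in 9.88% of all tested miRNAs. Like miR-1b, it was highest in sham library 2, with 175 reads, and lowest in PAB libraries 3 and 4, with 4 and 2 reads. The ratio of miR-1b reads to miR-133a-3p reads ran between 1.65 and 9.0 in the PAB libraries (median 4.21) and between 2.07 and 4.58 in the sham libraries (median 4.15).

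miR-206-3p had Pearson r of −0.20 to −0.03 with the other muscle miRNAs over the 9 libraries, where its median r with all 161 other miRNAs was 0.08. Its neighbour on chromosome 9, miR-133b-3p, had 5, 0 and 4 reads in PAB libraries 2, 3 and 4, where miR-206-3p had 536, 974 and 751. In sham library 2, where miR-206-3p had 573 reads, miR-133b-3p had 14.

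**Figure D4:**
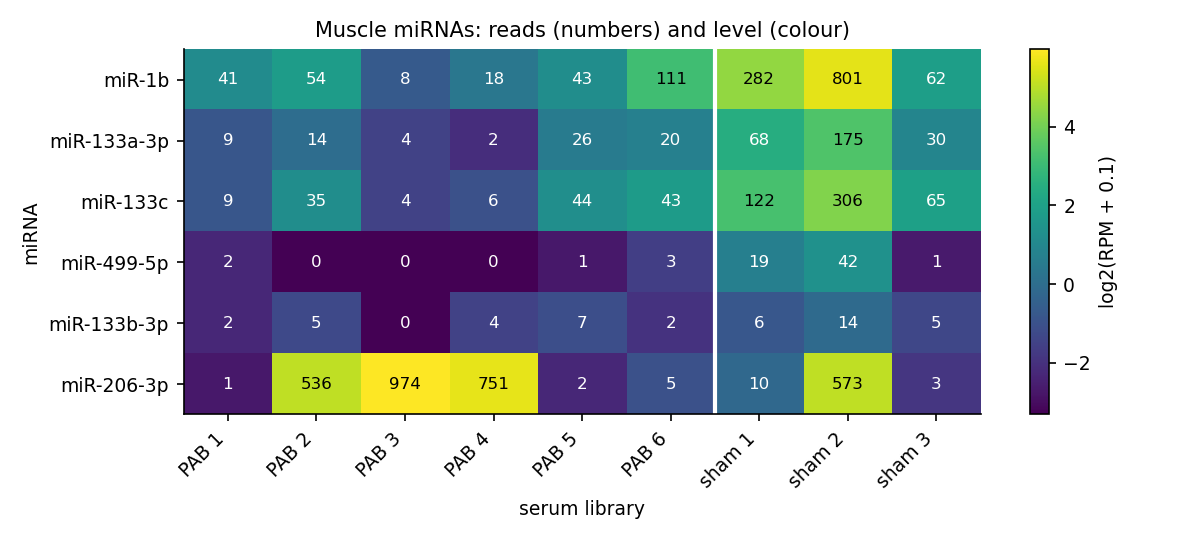
Reads (numbers) and level as log2(RPM + 0.1) (colour) of the 6 muscle miRNAs (rows) in the 6 PAB and 3 sham libraries (columns). miR-1b, miR-133a-3p and miR-133c are brightest in sham library 2, while miR-206-3p is bright in PAB libraries 2, 3 and 4 and in sham library 2.

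Although they share a seed and much of their sequence, miR-206-3p and miR-1b were not tied to each other (Pearson r = −0.11 and Spearman rho = −0.23 over the 9 libraries). In PAB library 3, miR-206-3p had 122 times the reads of miR-1b, in PAB library 4 it had 41.7 times and in PAB library 2 it had 9.93 times. In sham library 2 the ratio was 0.715. In the remaining libraries miR-206-3p stood at a small and similar number of reads per 100 reads of miR-1b. This number was 2.44 (95% exact interval 0.0603 to 14.4) in PAB library 1, 4.65 (0.546 to 17.9) in PAB library 5 and 4.50 (1.43 to 10.8) in PAB library 6. It was 3.55 (1.68 to 6.62) in sham library 1 and 4.84 (0.971 to 14.8) in sham library 3. These 5 intervals overlap, and the libraries are named by their reads of miR-206-3p, so the likeness is a description only.

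The level of miR-1b followed how many miRNAs a library held. Its Pearson r with the log2 number of miRNAs detected was 0.981 (Spearman rho 0.950, 9 libraries), the highest of all 162 tested miRNAs, where the median was 0.615 and 13.6% had at least 0.9. miR-1b had reads in every library and so did not itself change that number. miR-499-5p had r = 0.942 and miR-206-3p r = −0.15. With the log2 total of miRNA reads, r was 0.470 for miR-1b, 0.316 for miR-499-5p and 0.198 for miR-206-3p. Sham libraries 1 and 2 were the top pair for miR-1b and miR-499-5p, as for 43.2% of all tested miRNAs. What part the number of detected miRNAs has in the group difference of miR-1b or miR-499-5p was not tested.

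**Figure D5:**
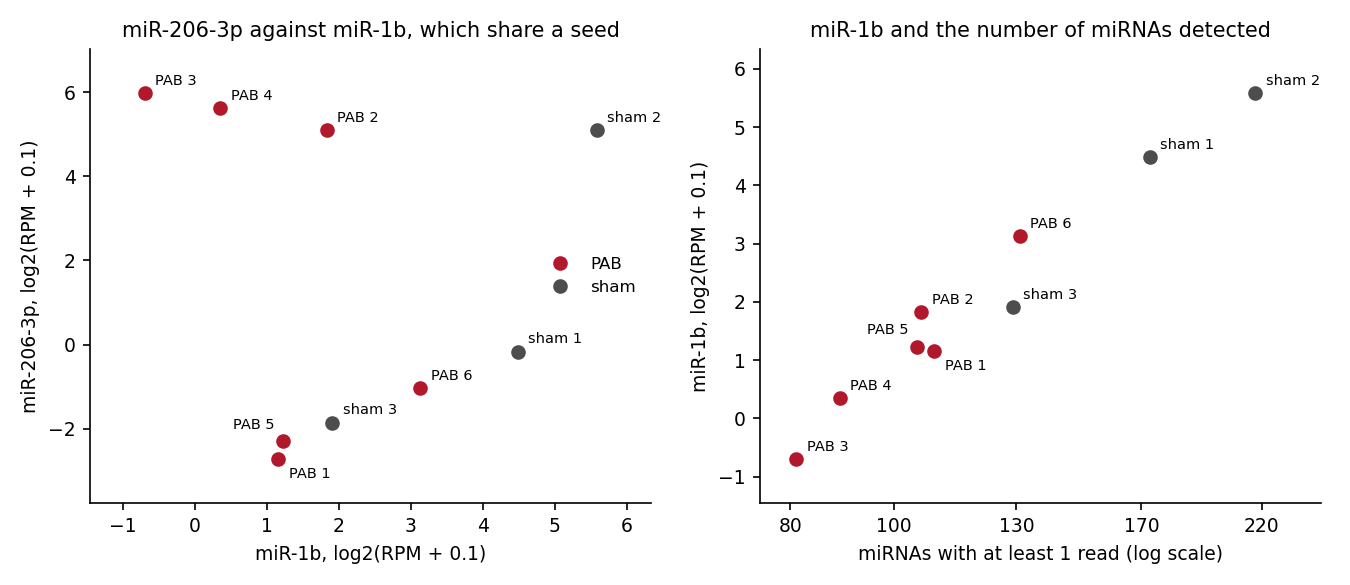
Left, miR-206-3p against miR-1b, both as log2(RPM + 0.1), in the PAB (red) and sham (grey) libraries. Right, miR-1b against the number of miRNAs with at least 1 read (log scale). The left panel shows 4 libraries with high miR-206-3p, both at the lowest and at the highest miR-1b, and on the right the points lie close to a line (r = 0.981).

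The miRNAs most like each of the 3 were picked by Pearson r over the 9 libraries. For miR-1b they were miR-146b-5p (r = 0.964, rho = 0.932), let-7e-5p (r = 0.952, rho = 0.932) and miR-19b-3p (r = 0.948, rho = 0.957), with at most 14, 39 and 20 reads in a library. For miR-499-5p they were miR-181b-5p (r = 0.990, rho = 0.970), miR-100-5p (r = 0.973, rho = 0.749) and let-7e-5p (r = 0.973, rho = 0.793). All were highest in sham library 2, as were 43.8% of all tested miRNAs. Such values were common for miR-499-5p, since 31 of 161 other miRNAs had an r above 0.9 with it and the median was 0.581. For miR-206-3p no miRNA reached 0.9, and the nearest were a miRNA without a miRBase name, predicted from these reads (r = 0.787, rho = 0.733), miR-652-3p (r = 0.557, rho = 0.683) and miR-98-5p (r = 0.531, rho = 0.483). The predicted miRNA had 244, 44 and 65 reads in PAB libraries 3 and 4 and sham library 2, and 0 reads in the other 6, among them PAB library 2, where miR-206-3p had 536.

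Of 6 listed miRNAs known from other sources, 5 were in the table, and their highest Pearson r with any of the 3 was 0.29. The red blood cell miRNAs miR-451-5p and miR-486, the liver miRNA miR-122-5p, the myeloid and platelet miRNA miR-223-3p and the lymphocyte miRNA miR-150-5p had Pearson r of −0.46 to 0.29 with miR-1b, −0.49 to 0.24 with miR-206-3p and −0.55 to 0.24 with miR-499-5p over the 9 libraries. The summed red blood cell miRNAs were 18.5 to 106.8 RPM in the PAB group and 2.14 to 50.5 RPM in the sham group. miR-122-5p was 0 to 105.8 RPM in the PAB group and 30.0 to 162.5 RPM in the sham group, and miR-150-5p was 0.065 to 211.5 RPM in the PAB group and 1.188 to 177.9 RPM in the sham group. miR-223-3p was 0 to 35.6 RPM in the PAB group and 0 to 0.079 RPM in the sham group. It had 683 reads in PAB library 5 and 0 or 1 in every other library, so its range and its r rest mainly on 1 library. The part of these miRNAs in the levels of the 3 was not tested.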

How the data were processed

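The authors extracted serum RNA with a miRNeasy serum kit, made MGIEasy small RNA libraries with PCR and read single ends of 50 bases. Per the paper, clean reads were aligned to the rat genome Rnor_6.0 and compared with miRBase and Rfam, while the labels name Bowtie2 2.2.9, DESeq2 and the human build GRCh38.p13. The deposited counts are whole reads per mature miRNA (276, of which 58 are predictions), and the deposited RPM values are those counts over 1 total per library. The counting rule is not given in the sources used here.

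Counts of the 162 miRNAs above 0 in at least 3 of 9 libraries were tested with edgeR 4.0.16 (R 4.3.3, TMM, quasi-likelihood, Benjamini-Hochberg). Standard errors are |log2FC| over the square root of F. Exact two-sided permutation tests used log2(RPM + 0.1) and all 84 splits, and Fisher's exact test the libraries with reads. Shares have 95% exact (Clopper-Pearson) intervals, and limits for 0 are 3 counts. Alternatives were DESeq2 1.42.0, limma-voom (limma 3.58.1), other normalizations and filters, pseudocounts of 0.01 and 1, the table without predictions, a block for the library number and each library left out. Exact tests ran in scipy 1.17.1 (Python 3.11.15), and figures were drawn with matplotlib 3.10.9.

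The members, lists and tests were chosen with earlier results of these data known. Named were the 3 miRNAs, the listed muscle miRNAs in the table, and the 3 miRNAs with the highest Pearson r to each. P-values compare the groups with the library as the unit, 1 per rat by their labels. RT-qPCR, ultrasound and patients' values were not used.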

Additional observations from a re-analysis of the deposited data

Results flagged for a closer look

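Among the PAB libraries, miR-1b in PAB library 6 stood apart at 8.651 RPM, against 3.452 RPM in the next highest, a gap of 0.639 of the group's range where Dixon's 95% critical value for 6 samples is 0.625. Its share of miRNA reads there, 0.372%, did not stand apart (gap ratio 0.473), and miR-133a-3p and miR-499-5p in the same library did not either (0.141 and 0.556 in RPM). This was 1 of 24 such checks, which took the highest and the lowest PAB value of 6 muscle miRNAs in 2 quantities, RPM and share. Chance flags about 1 in 20 groups of values, counting both ends of a group together. The 2 quantities come from the same reads, so the checks are not independent.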

How the results depend on the processing

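In edgeR and its alternatives, miR-1b kept its sign and stayed uncalled in 21 of 21 settings (log2FC −3.02 to −0.31), as did miR-206-3p in 21 of 21 (1.06 to 6.96). miR-499-5p did so in 18 of 20, the exceptions being −4.25 (called) with the totals implied by RPM and 0.26 without sham libraries 1 and 2, and it had too few reads for the filter of 10 reads in 3 libraries. With 1 library left out, log2FC was −1.47 to −0.52 for miR-1b, 1.98 to 6.96 for miR-206-3p and −2.84 to −1.37 for miR-499-5p.

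Over all miRNAs, the number called lower was 2 and became 5 with DESeq2 (4 with its default filters), 6 with total miRNA reads, 23 with the totals implied by RPM, 10 with no filter on low counts, 5 with miRBase miRNAs alone, and 0 with limma-voom, with DESeq2's size factors, with at least 10 reads in 3 libraries or without sham libraries 1 and 2. The number called higher was 0 and became 9 with DESeq2 under either filter and 1 with no filter on low counts. With 1 library left out it was 0 to 2 lower and 0 higher.

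The difference in mean log2(RPM + 0.1) was −3.87 to −2.03 for miR-1b, −3.79 to −1.77 for miR-499-5p and −0.69 to 2.78 for miR-206-3p with 1 library left out (exact permutation p up to 0.107, 0.107 and 1). With pseudocounts of 0.01 and 1 the difference of miR-499-5p was −4.21 and −0.99. The difference of miR-206-3p turned to −0.09 without PAB library 3, −0.02 without PAB library 4 and −0.69 without sham library 3. For miR-1b and miR-499-5p, the exact p was above 0.05 with TMM-normalized CPM (−1.45 and −1.40) and with shares of miRNA reads (−2.10 and −2.74). Without sham libraries 1 and 2 the differences were −0.74 and −0.11. With the 1 sham library left, too few splits remain for an exact p of 0.05 or less, so that setting has no usable p. Where only the libraries in the test changed, fewer splits were possible, and no further cause was tested. The share of libraries with miR-499-5p was lower in the PAB group by 40 to 60 percentage points (values of −60.0 to −40.0) and stayed at 0 for the other 2, with 1 library left out.

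Libraries 1 to 3 of each group share numbers, and no pairing by number was seen. Deviations of same-numbered libraries had correlations of −0.15, −0.35 and 0.03, against −0.16 to 0.21 for differently numbered ones. So few correlations cannot exclude that same-numbered libraries belong together. With the replicate block on these 6 libraries log2FC was −1.98 for miR-1b, 2.2 for miR-206-3p and −3.34 for miR-499-5p, against −1.80, 3.82 and −2.90 without it, and 0 miRNAs were called lower either way. miR-499-5p had 0 reads in 3 PAB libraries, so its level there is known only as an upper limit.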
